A study of Mus musculus with 3 samples.

Results

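The transcripts described here are 10 genes of the contractile apparatus of myofibroblasts, picked by name from the table of expression values: Acta2, Actg2, Tagln, Cnn1, Cald1, Tpm1, Tpm2, Myl9, Myh11 and Lmod1. All 10 were found among its 43472 rows, of which 20322 had reads. They were measured by RNA sequencing in primary fibroblasts, grown from tail tips of C57BL/6 mice, that had been scratch-wounded as an in vitro wound and kept for 5 h with a soluble micrograft (MG, the cell-depleted extract of minced mouse skin) and PD0325901. PD0325901 blocks the kinase MEK, which activates ERK, and every library carries both the wound and both treatments. The 3 libraries are labelled replicates 1, 2 and 3 of this 1 condition, and neither the number of mice nor the day of each culture is given. Cells without MG or without the inhibitor were not analysed here, so no effect of a treatment was computed, and the values below are levels and their spread between replicates.

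When a fibroblast turns into a myofibroblast, the cell that closes and contracts a wound, it builds stress fibres from genes otherwise typical of smooth muscle. In these fibres alpha-smooth muscle actin forms filaments, tropomyosins, caldesmon, calponin and transgelin bind along them, and myosin II pulls on them once its regulatory light chain is phosphorylated. Many of these genes are driven by serum response factor (SRF), which binds a DNA element named the CArG box and works with myocardin or the myocardin-related factors MRTF-A and MRTF-B, and TGF-beta is the best known inducer of the programme.

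The CArG box was searched for in promoter windows that reach from 250 bases before to 50 bases after the RefSeq start of each gene (GRCm38.p6), on both strands. Of the 10 genes, 7 had at least 1 window in the table used, 8 windows in all, and Tagln, Actg2 and Myh11 had none. An exact CArG box, a core of 6 A or T bases between CC and GG, stood in the window of Myl9 alone and in 1.63% of all 32851 windows. With 1 base of the core changed to C or G, matches were found in Myl9 and in Acta2, against 8.50% of all windows. The matches are shown because SRF binds this element, and the level of Srf is given further on. Capitals mark the match, lower case the 10 bases on each side, and positions count back from the RefSeq start.
Acta2, bases 84 to 75 before the start, minus strand of chr19:34255438-34255467: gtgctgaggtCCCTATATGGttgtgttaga
Acta2, bases 34 to 25 before the start, minus strand of chr19:34255388-34255417: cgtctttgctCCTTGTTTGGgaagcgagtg
Myl9, bases 161 to 152 before the start, plus strand of chr2:156775293-156775322: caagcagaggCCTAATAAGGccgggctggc
Myl9, bases 99 to 90 before the start, plus strand of chr2:156775355-156775384: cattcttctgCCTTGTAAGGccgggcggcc
GENCODE M21 starts Acta2 217 bases further upstream, so both of its matches lie inside an annotated exon there, whereas those of Myl9 lie outside its exons. The AP-1 element TGANTCA was found in 1 of the 8 windows, a Cald1 window, against 7.81% of all windows. Binding was not measured in this series, and a match is a description of the letters only.

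Expression values are normalized counts, the reads on a gene divided by 1 size factor for each library. Between 17244505 and 27037783 reads fell on genes per library. A count of 0 allows up to 3 reads, or 2.11 to 3.56 normalized counts, and this limit covers counting error only, since the reads carry no molecular identifiers. Before the genes are described, 1 feature of the libraries matters. Among 13154 genes averaging 10 or more normalized counts, replicate 2 differed over 2-fold from each of the others in 10.1%, against 4.26% for replicate 1 and 3.58% for replicate 3. None of the 10 contractile genes was apart in this way in replicate 2 or 1, and Myh11 was apart in replicate 3.

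All 10 genes were detected, that is, each reached 10 normalized counts in all 3 libraries, and together they took 2.57%, 2.44% and 2.72% of the reads on genes in replicates 1, 2 and 3. The levels covered a wide range, from Acta2, the gene of alpha-smooth muscle actin that defines the myofibroblast, to Myh11, the heavy chain of smooth muscle myosin. By mean level per kb of exon Acta2 ranked 2 among all genes, and Myh11 ranked 4713. The plot of levels by gene shows this order and the scatter of the replicates around each mean.

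**Figure D1:**
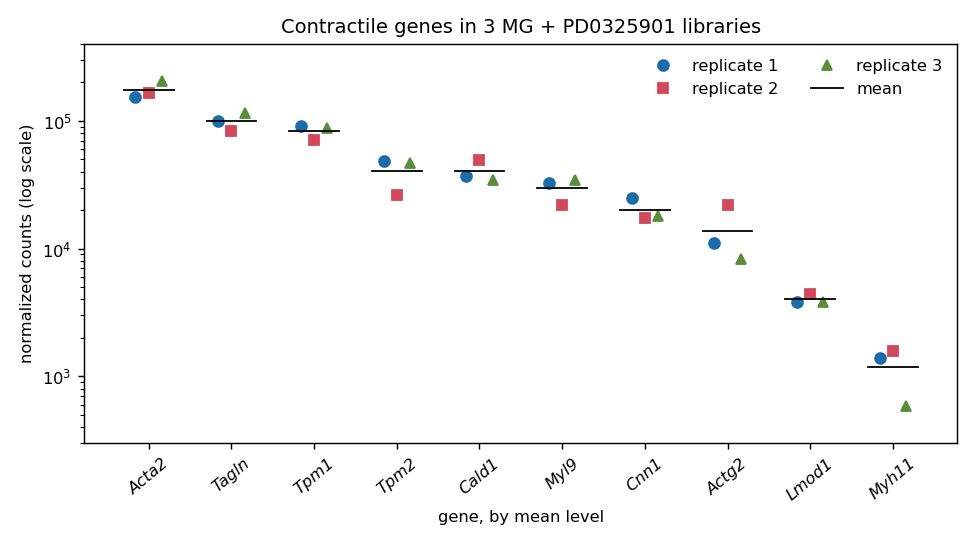
Normalized counts on a log axis (vertical) of the 10 contractile genes (horizontal, by mean) in replicates 1 (circles), 2 (squares) and 3 (triangles) of the MG + PD0325901 condition, with the mean as a bar. Acta2 lies at 152758 or more in every library, and the replicates scatter most for Actg2 and Myh11.

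Among the actins, Acta2 (chromosome 19, 34241090 to 34255590, on the minus strand of GRCm38) was measured at 152758, 166683 and 205899 normalized counts, with a mean of 175113 ± 27555 (SD, n = 3). It was highest in replicate 3 and lowest in replicate 1, a 1.35-fold difference, and replicate 2 lay between them. Acta2 alone held 0.780%, 0.875% and 1.01% of the reads on genes. Actg2 (chromosome 6, 83512905 to 83536265, minus strand), the gamma-smooth muscle actin typical of gut muscle, had 10999, 21837 and 8241 normalized counts and a mean of 13692 ± 7187 (SD, n = 3). Replicate 2 was the high one for Actg2, 1.99-fold above replicate 1 and 2.65-fold above replicate 3. Per kb of exon, Acta2 exceeded Actg2 9.85-fold, 5.41-fold and 17.7-fold within replicates 1, 2 and 3, and this ratio does not depend on how the libraries are scaled against each other.

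The proteins that bind along the actin filament were abundant as well. Tagln (chromosome 9, 45929619 to 45936058, minus strand) encodes transgelin, also named SM22-alpha, an early marker of smooth muscle, and had 100445, 83454 and 114825 normalized counts. Its mean was 99575 ± 15704 (SD, n = 3), with replicate 2 lowest and replicate 3 highest. An antisense gene, Gm48529, covers 62.4% of the exon bases of Tagln in GENCODE M21, and the strand setting of the read counting is not given, so reads from the opposite strand cannot be told apart from those of Tagln. Cnn1 (chromosome 9, 22099216 to 22109630, plus strand), calponin 1, which inhibits the actomyosin ATPase, had 24823, 17498 and 18068 normalized counts. Replicate 1 was the high library here, while replicates 2 and 3 differed by 1.03-fold. Cald1 (chromosome 6, 34598500 to 34775473, plus strand), caldesmon, a regulator of the access of myosin to actin, had 36700, 49630 and 34370 normalized counts. For Cald1 replicate 2 was highest and the other libraries lay within 1.07-fold of each other. GENCODE M21 lists 18 transcripts for Cald1, and counts per gene do not separate the smooth muscle form of the protein from that of other cells.

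Both tropomyosin genes were lowest in replicate 2. Tropomyosins wind along the actin filament and control which myosins and other proteins reach it. Tpm1 (chromosome 9, 67022590 to 67049406, minus strand) had 90779, 71218 and 87695 normalized counts, with a mean of 83231 ± 10517 (SD, n = 3). Tpm2 (chromosome 4, 43514711 to 43523765, minus strand) had 48620, 26347 and 46870, with a mean of 40613 ± 12385 (SD, n = 3). Replicates 1 and 3 agreed within 1.04-fold for each of these genes, and replicate 2 was 1.27-fold below replicate 1 for Tpm1 and 1.85-fold below it for Tpm2. Per kb of exon the ratio of Tpm1 to Tpm2 was 0.838 and 0.839 in replicates 1 and 3 and 1.21 in replicate 2, so Tpm1 was the higher of the pair in replicate 2 alone. Without division by length it was the higher one in every library, with ratios of 1.87, 2.70 and 1.87.

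Of the myosin II genes, the light chain was high and the smooth muscle heavy chain low. Myl9 (chromosome 2, 156775420 to 156781658, plus strand), the regulatory light chain on which contraction is switched by phosphorylation, had 32863, 21886 and 34702 normalized counts. Replicate 2 was lowest for Myl9, 1.59-fold below replicate 3, while replicates 1 and 3 lay within 1.06-fold. Myh11 (chromosome 16, 14194535 to 14291372, minus strand), the most specific of these genes for mature smooth muscle, had 1383, 1587 and 584 normalized counts, with a mean of 1185 ± 530 (SD, n = 3). In this case replicate 3 stood alone, at 493 reads and a counting error of 4.5%. Lmod1 (chromosome 1, 135324807 to 135368065, plus strand) encodes leiomodin 1, which starts new actin filaments in smooth muscle, and was the steadiest of the 10 genes. Lmod1 had 3817, 4410 and 3811 normalized counts, a coefficient of variation of 8.58% against 52.5% for Actg2 and 44.7% for Myh11.

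Because longer transcripts collect more reads, the genes were put in order after division by the length of the annotated exons, as normalized counts per kb. Acta2 was first with 79742 ± 12548 per kb, Tagln the next with 50088 ± 7899, and Myl9 the third with 25660 ± 5964 (SD, n = 3 each). The lowest library of each of these genes was above the highest library of the next, so the spread between replicates separated them. Tpm2 with 13961 ± 4257 per kb, Tpm1 with 12834 ± 1622, Actg2 with 8794 ± 4616 and Cnn1 with 7357 ± 1489 (SD, n = 3 each) followed, and within this run every neighbouring pair overlapped between libraries. In replicate 2 Actg2 stood above both tropomyosins at 14025 per kb. Cald1 with 3341 ± 683 per kb, Lmod1 with 1016 ± 87.2 and Myh11 with 156 ± 69.8 (SD, n = 3 each) came last and were separated from each other. By the longest transcript in place of all exons, Tpm1 took the third place ahead of Myl9 and Tpm2, although Tpm1 and Myl9 overlapped between libraries, as did Myl9 and Tpm2. Cald1 then reached 8422 ± 1721 per kb (SD, n = 3) and overlapped Cnn1. Acta2, Tagln, Lmod1 and Myh11 kept their places.

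The spread between replicates was then set against that of all detected genes. Of the 10 genes, 2 (Actg2 and Myh11) spanned over 2-fold between libraries, against 21.6% of the 12204 detected genes, a share near the background. Of the 3786 genes averaging 1000 or more normalized counts, a level that every member reached, 11.6% did. The count was 1 without replicate 2 (Myh11) and 0 without replicate 3. On the log2 scale, with 1 added to each value, the SD between libraries had a median of 0.28 over the members, 0.30 over the detected genes and 0.25 over those abundant genes. Between replicates 1 and 3 the median difference was 1.10-fold over the members and 1.21-fold over the detected genes.

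The libraries were compared pair by pair with two-sided exact binomial tests on the recovered reads, adjusted by Benjamini-Hochberg over all genes tested. A gene was called where the adjusted p was under 0.05 and the difference more than 2-fold. These tests compare libraries, not conditions, and cover counting error only. Between replicates 1 and 2, 0 of 10 members were called, against 20.3% of 14771 genes. Between replicates 1 and 3 the exact test called Myh11, 2.36-fold lower in replicate 3 (adjusted p = 1.76e-69), against 9.27% of 14316 genes. Between replicates 2 and 3 it called Actg2 and Myh11, 2.65-fold and 2.71-fold lower in replicate 3, against 16.4% of 14344 genes. By adjusted p alone 10, 9 and 10 members passed in these comparisons, against 69.1%, 52% and 62.6% of the genes tested, and Lmod1 between replicates 1 and 3 was the member that did not (adjusted p = 0.97, exact test).

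The members did not move as 1 block between the replicates. Tpm2, Myl9, Tagln, Tpm1 and Cnn1 were lowest in replicate 2, 5 of 10 genes, against 37.3% of detected genes. Actg2, Myh11, Cald1 and Lmod1 were highest there, 4 of 10, against 40.6%. Acta2 was neither. On the log2 scale, replicate 2 minus the mean of replicates 1 and 3 ran from -0.86 for Tpm2 and -0.63 for Myl9 to 0.82 for Myh11 and 1.20 for Actg2. Replicates 1 and 3 were the closest pair of libraries for 7 of the 10 genes, all but Acta2, Cnn1 and Myh11, against 46.6% of detected genes. With the libraries scaled to equal totals, Cnn1 was lowest in replicate 3 instead, as its values in replicates 2 and 3 are so close. Under TMM scaling Lmod1 was lowest in replicate 1 in place of replicate 3, as its values in those libraries are nearly equal.

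**Figure D2:**
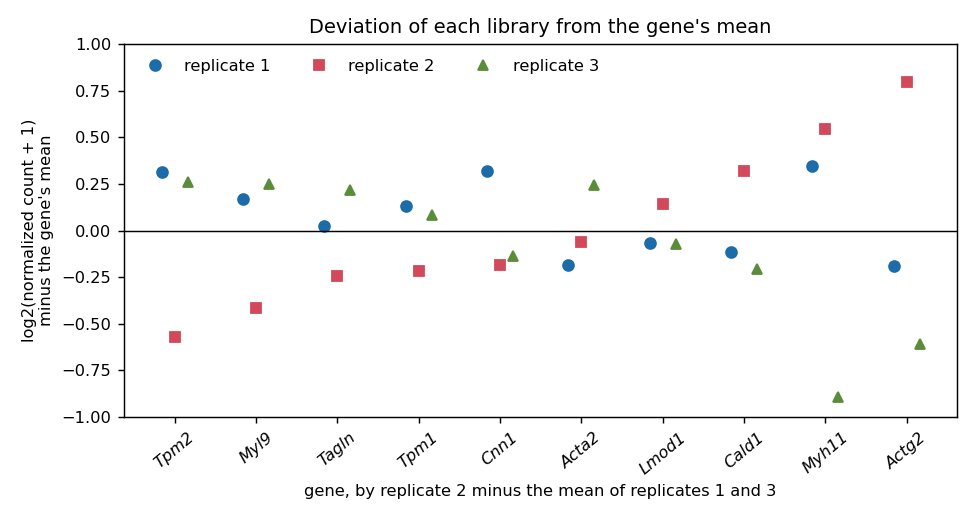
Deviation of each library from the gene's mean (vertical, log2 of normalized count + 1) for the 10 contractile genes (horizontal, ordered by replicate 2 minus the mean of replicates 1 and 3), with 1 symbol for each replicate. Tpm2 and Actg2 mark the ends of the order, at -0.57 and 0.80 in replicate 2, and Myh11 lies at -0.89 in replicate 3.

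Each member was next compared with the other genes of its own family, as the share of the family's normalized counts per kb, which is free of the scaling between libraries. Acta2 made up 41.8%, 47.4% and 53.1% of the actin transcripts in replicates 1, 2 and 3, a mean share of 47.4% ± 5.66 (SD, n = 3), and it was the leading actin in every library. The cytoplasmic actins Actb and Actg1 held 21.6% ± 2.69 and 23.7% ± 4.11 (SD, n = 3), and Actg2 held 4.24%, 8.75% and 3.00%. The skeletal actin Acta1 was detected too, with 2429, 7286 and 5586 normalized counts, a 3.00-fold range, while the cardiac actin Actc1 had reads in replicate 2 alone (33 reads). Actins are close in sequence, yet only 0.326% of the 50-base stretches of the Acta2 transcripts occurred exactly in annotated transcripts of another gene. For Actg2 this share was 0%, and for Actg1 it was 37.4%, most of it with the processed pseudogene Gm12715. The authors' alignment to the genome allowed mismatches, so whether each read was assigned to the right actin was not tested.

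Among the tropomyosins, Tpm2 held a mean of 32.6% ± 7.37 per kb of exon and Tpm4 35.0% ± 8.48 (SD, n = 3). Tpm3 held only 2.03% ± 0.155 (SD, n = 3). Tpm1 held 30.4% ± 0.984 of the family per kb (SD, n = 3), and its share stayed between 29.3% and 31.1%, but it was 51.7% without division by length and 44.5% by the longest transcript. Tpm2 fell from 37.2% and 36.6% in replicates 1 and 3 to 24.1% in replicate 2, whereas the non-muscle gene Tpm4 held 29.6%, 44.8% and 30.6%. Tpm4 had 29315, 36999 and 29639 normalized counts, so replicate 2 was the highest library for Tpm4 and the lowest for Tpm1 and Tpm2.

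Among the regulatory light chains Myl9 held 86.1%, 79.9% and 86.1% per kb, and the non-muscle Myl12a, with 14973, 15291 and 15910 normalized counts, most of the rest. Myl12a and Myl12b share 551 of their 50-base stretches, and reads from these were not unique. In all, 21.1% of the stretches of Myl12a and 19.1% of those of Myl12b occurred in another gene. The levels of both, 312, 545 and 199 normalized counts for Myl12b, are therefore uncertain. Transgelins were mostly Tagln (92.0% ± 1.49, SD, n = 3), and Lmod1 made up 90.4% ± 1.81 (SD, n = 3) of the leiomodins and tropomodulins. The Lmod1 share was 77.6% without division by length and 78.0% by the longest transcript. In that family Lmod2 had no reads and Lmod3 at most 1 read per library. Calponins were split between Cnn1 with 41.1% ± 2.98 and Cnn2 with 41.3% ± 3.81 (SD, n = 3), shares that the spread between replicates did not separate.

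Among the heavy chains the smooth muscle gene was a minor one. Myh11 held 9.96%, 6.12% and 2.75% of the myosin II heavy chain transcripts per kb in replicates 1, 2 and 3, and 6.19%, 3.76% and 1.66% without division by length. Non-muscle Myh9, which moves fibroblasts and other cells, held 86.5% ± 4.19 (SD, n = 3), and its level per kb was 8.36-fold, 13.9-fold and 33.1-fold that of Myh11. Myh9 itself had 19671, 37516 and 32932 normalized counts.

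**Figure D3:**
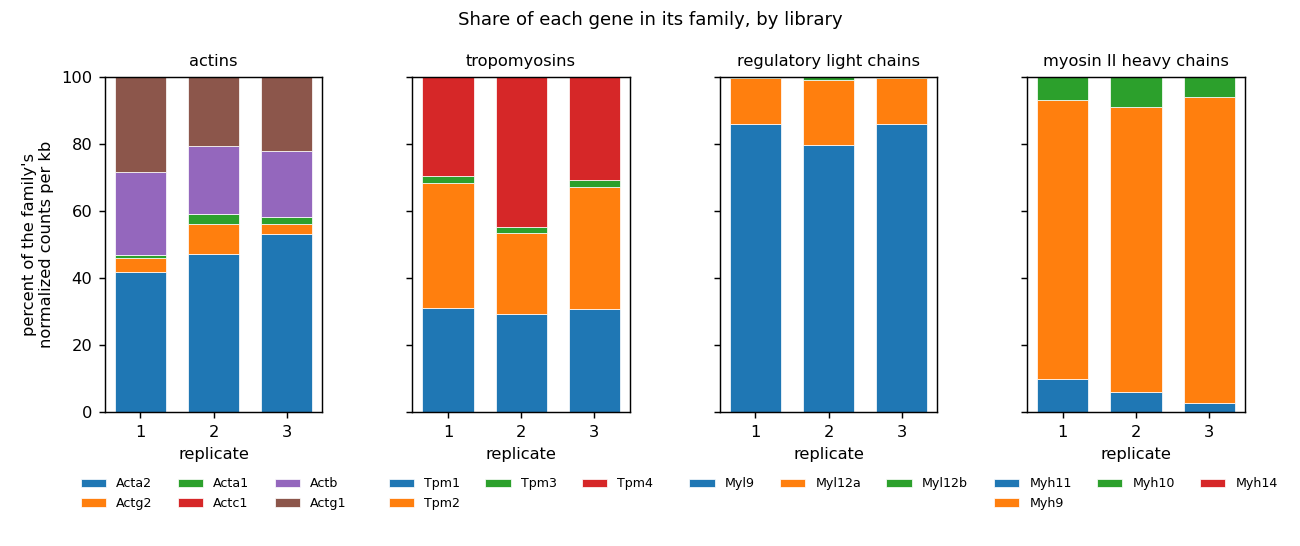
Share of each gene in the normalized counts per kb of its family (vertical, percent) in replicates 1 to 3 (horizontal), as stacked bars for actins, tropomyosins, regulatory light chains and myosin II heavy chains. Acta2 and Myl9 lead their families in every library, Tpm2 is smaller in replicate 2, and Myh11 is at most 9.96% of the heavy chains.

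The cells were checked against markers. Of 8 fibroblast markers all 8 were detected, led by Col1a1 with 157553, 154124 and 246175 normalized counts. Of these markers 2 had a more than 2-fold range, against 21.6% of detected genes. Both were lowest in replicate 2, Lum with 5073, 289 and 1164 and Dcn with 3661, 1723 and 3659. A list of 15 further smooth muscle genes gave 11 detected and 1, the phospholamban gene Pln, without reads, and 3 under the minimum, Casq2 and Pcp4 among them. By normalized counts the leading ones were Mylk, the myosin light chain kinase, with 5820, 3617 and 6886 normalized counts, Smtn (smoothelin) with 4008, 4892 and 4881, Hspb6 with 1742, 1239 and 1438, and Synpo2 with 772, 1105 and 811. Desmin (Des), the intermediate filament of muscle, had 212, 1208 and 77.0 normalized counts, a 15.7-fold range. In this list 6 of the 11 detected genes had a more than 2-fold range, against the 21.6% of detected genes given above and 2 of 10 contractile members. Des, Cacna1c (454, 880.1 and 352) and Ldb3 (478, 790 and 344) were highest in replicate 2 and lowest in replicate 3. Actg2, Myh11 and Cald1 stood in the same order. Lmod1 did so only narrowly, with 3817 and 3811 normalized counts in replicates 1 and 3. Replicate 2 was the highest library for 40.6% of detected genes, and the share in the full order was not computed. Of the 6 genes of this list, the other 3 ran in other orders. Synm (168, 97.2 and 367) and Itga8 (160, 279.7 and 522) were highest in replicate 3, and Ppp1r14a (221, 72.6 and 142) was highest in replicate 1.

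Smooth muscle and pericyte cells share these markers with myofibroblasts, and in a bulk sample a larger share of such cells cannot be told apart from more RNA per cell. Of 8 pericyte markers 5 were detected, and their summed level was 7506, 8401 and 17652 normalized counts, mostly from Cspg4, with 3546, 5232 and 11476, and Ndufa4l2, with 2824, 1335 and 5504, both highest in replicate 3. Rgs5 had 208, 106 and 104 normalized counts, highest in replicate 1. Kcnj8 and Abcc9, which mark mature pericytes, had at most 6 reads in any library and Higd1b had none. Notch3, with 40.8, 228 and 23.7 normalized counts, and Mcam, with 886, 1496 and 544, were highest in replicate 2 and lowest in replicate 3. The 14 markers of skeletal and cardiac muscle summed to between 47.2 and 66.0 normalized counts, with Myod1, Myf5, Pax7, Myh2 and Myh6 at 0. Keratinocyte markers (4 genes) summed to 34.4 to 81.6 normalized counts, almost all Krt10, leukocyte markers (4 genes) to 4.34, 8.46 and 62.8, and endothelial markers (4 genes) to 20.8, 190 and 5.93, with Tek at 6.95, 185 and 2.37 and Cdh5 at 0 in replicates 1 and 2. The part of any of these cells in the levels of the contractile genes was not tested.

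Of the 18 regulators of the programme 16 were detected, and 12 of these stayed within a 2-fold range. The other 4 went beyond it, against 21.6% of detected genes, a share near the background. Srf had 2385, 2421 and 2642 normalized counts, a 1.11-fold range. MRTF-A (Mkl1) had 2141, 3448 and 2113 normalized counts and MRTF-B (Mkl2) 329, 395 and 312, both highest in replicate 2. Myocardin (Myocd), the cofactor of differentiated smooth muscle, was near the limit of detection with 6.08, 20.4 and 5.93 normalized counts. Tgfb1 had 1166, 922 and 1672 normalized counts, lowest in replicate 2 and highest in replicate 3. The 4 regulators with a wider range were Prrx1, Klf4, Notch3 and Gata6. Among them Prrx1, a homeobox factor of fibroblast lineages, had 1975, 10866 and 2067 normalized counts, and Klf4, known to repress smooth muscle genes, had 932, 2096 and 1360. By normalized counts the list was led by the LIM proteins Csrp1, with 30098, 29597 and 34242 normalized counts, and Fhl1, with 17089, 24392 and 16968, and Fhl2 followed Prrx1 with 3099, 3063 and 2768.

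**Figure D4:**
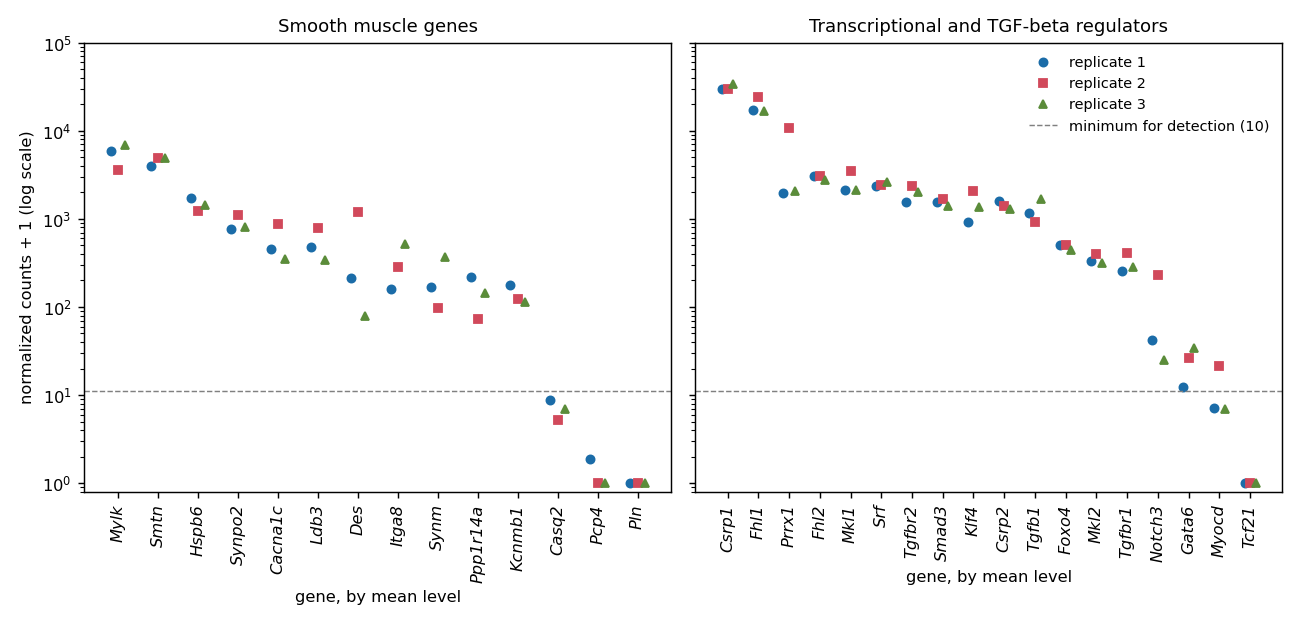
Normalized counts + 1 on a log axis (vertical) of 14 smooth muscle genes (left) and 18 regulators (right), by mean level, in replicates 1 to 3, with the minimum of 10 normalized counts as a dashed line. Des, Notch3 and Prrx1 are highest in replicate 2, Srf hardly moves, and Myocd lies around the minimum.

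The enzymes that switch the light chain were detected in 14 of 15 cases. Of these 2, Ppp1r12a and Ppp1r14a, had a more than 2-fold range, against 21.6% of detected genes. Rhoa, with 16846, 14318 and 14286 normalized counts, and Rock2, with 9475, 11631 and 9480, which together promote phosphorylation of Myl9, varied by 1.18-fold and 1.23-fold. Calm2, with 11070, 7885 and 10022 normalized counts, encodes calmodulin, the calcium sensor that activates the kinase Mylk. Ppp1r12a, the myosin-binding subunit of the phosphatase that reverses it, had 516, 1336 and 1022 normalized counts. All 14 genes of stress fibre crosslinkers and adhesion adaptors were detected, led by the filamin gene Flna with 38824, 68501 and 71581 normalized counts, and they included the alpha-actinin Actn1 with 23425, 33153 and 33359 and vinculin (Vcl) with 20250, 34428 and 29695. Replicate 2 was the highest library for 7 and the lowest for 3 of these 14 genes, against 40.6% and 37.3% of detected genes. A more than 2-fold range was found in 3 of the 14, Lasp1 and Palld included, against 21.6% of detected genes, a share near the background.

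Genes with a pattern like that of Acta2 were looked up by the largest difference, over the 3 libraries, between log2 values centred on each gene's mean. Among the 3785 other genes that averaged 1000 or more normalized counts, Gys1, Synj2 and Ddx54 came closest, each within 0.01 of Acta2 on the log2 scale. With 3 libraries such likeness is common, and 176 of these genes lay within 0.1.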

How the data were processed

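The authors prepared stranded mRNA libraries, sequenced single ends of 50 bp, aligned them to mm10 by TopHat2 (version 2.0.13), kept uniquely aligned reads and counted them per gene with HTSeq. Annotation and strand setting are not given in the sources used here. The deposited signal is 1 table of normalized counts, from which a further 3 columns were not used, because they match no labelled sample. Dividing by the value of 1 read gave whole reads (within 0.05) for 100% of values per library, with size factors of 1.15, 1.42 and 0.844.

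Normalized counts gave the means, SDs and fold ranges, and a pseudocount of 1 was added before taking log2. Detection required 10 normalized counts in every library. Exact binomial tests needed 10 reads summed over the pair. TMM factors (edgeR 4.0.16, R 4.3.3) served as alternative scaling, and Python 3.11.15 with scipy 1.17.1 the rest. The exact test and the count of genes over 2-fold were checked on simulated reads that varied by counting error alone. That check does not cover the wider spread between real libraries, and the other steps were not checked in this way. Positions, exon lengths and shared 50-base stretches came from GENCODE M21 (GRCm38, the build mm10), and promoter windows from RefSeq. The rule named members, paralogs, the 4 most abundant genes of each list, Srf, Myocd, the MRTF genes, Tgfb1 and the 3 genes most like Acta2. Some genes of the lists are counted but not reported by name here. Other list genes, such as Des, Notch3, Klf4, Ppp1r12a and those over 2-fold, were named after their values were seen. Members and lists were chosen with earlier results of these data known. With 1 condition, p-values measure differences between libraries only.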

Additional observations from a re-analysis of the deposited data

How the results depend on the processing

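All 10 genes were detected at minimums of 1 and 100 normalized counts as well. The count of genes with a more than 2-fold range was 2 under TMM scaling, equal totals, a pseudocount of 10 and no minimum, and 4 at a limit of 1.5-fold, by construction. It lay between 0 and 2 with 1 replicate left out. Calls between libraries were the same under TMM scaling and without a minimum of reads, and by adjusted p alone (exact binomial test) they became 10 between replicates 1 and 2, 9 where 1 and 3 were compared, and 10 where 2 and 3 were, against 69.1%, 52% and 62.6% of all genes tested. The median SD of log2 values was between 0.10 and 0.35 with 1 replicate left out, lowest without replicate 2. By the longest transcript 3 genes changed place in the order of levels, and without division by length 4 did, which follows from the lengths. The share of Tpm1 among tropomyosins was 51.7% without division by length, 44.5% by the longest transcript and 27.6% by the number of 50-base stretches found in no other gene, and that of Myl9 among regulatory light chains 64.9%, 76.0% and 79.7%. Without division by length the mean share of Myh11 among heavy chains was 3.87% instead of 6.28%, that of Actg2 among actins 3.54% instead of 5.33%, and that of Tpm4 among tropomyosins 20.3% instead of 35.0%. The share of Acta2 among actins was 47.4% per kb of exon and 44.1% without division by length. It was 42.0% by the longest transcript and 43.5% by the unshared 50-base stretches. These moves were under 1 SD between replicates, an SD that does not measure an error from the lengths. By the unshared stretches Actg1 held 30.6% instead of 23.7%, and in replicate 1 36.0% against 37.6% for Acta2. The longest transcript and 50-base stretches for the shares, and shares without 1 replicate, were added after the data were seen. Mean levels moved by at most 1.15% with TMM scaling or equal totals. No paired analysis was possible because there was 1 condition. Counting error was at most 4.5% for the 10 genes. Pln, at 0 reads, could lie anywhere below the limit of 2.11 to 3.56 normalized counts.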
